A study of Mus musculus with 36 samples.

Results

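Oncofetal genes are active in the fetal liver, fall silent in the adult organ and often return in liver tumours. The set described here is a list of 10 gene symbols, taken by name with no threshold on a measured value, and all 10 are among the 21889 symbols of the deposited table. It holds Gpc3, Lin28b, Trim71, Igf2bp1, Igf2bp2, Igf2bp3, Hmga1 and Hmga2, with the hepatic repressors Zhx2 and Zbtb20. Livers came from 36 untreated male mice of strain C57BL/6 (C57BL/6J in the methods of the study), with 12 ages of 3 mice. The fetal age is GD17.5, day 17.5 of gestation, which the sample labels count as Day -2 from birth, and Day 0 livers were taken at birth before suckling. Days 1, 3, 5, 10, 15 and 20 fall before weaning and Days 25, 30, 45 and 60 after it. No genotype or treatment separates the groups, so age is the only difference that the labels give.

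Glypican-3, the product of Gpc3, is a heparan sulphate proteoglycan anchored to the cell surface that is used as a tumour marker in liver. LIN28B binds precursors of the let-7 microRNAs and blocks their maturation, and let-7 in turn represses mRNAs that carry its seed match, Lin28b and Hmga2 among them. IGF2BP proteins bind mRNAs such as Igf2 and H19 and affect their stability and translation, while the HMGA proteins bind AT-rich DNA and alter chromatin structure. ZHX2 and ZBTB20 are nuclear proteins that repress Afp (alpha-fetoprotein, the main serum protein of the fetus) in the liver after birth, and H19, Gpc3 and Lpl are also known to respond to ZHX2.

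Expression was given as FPKM, fragment counts divided by the length of the transcript and by the size of the library. Summed FPKM per mouse ranged from 353712 to 450597. From the smallest values above 0 of 1852 low genes, 1 fragment was estimated to be worth about 0.00221 FPKM for Trim71 and 0.00427 FPKM for Gpc3. Libraries of the same age differed in how their deviations followed transcript length, with Spearman's rho from -0.545 to 0.576 across 11017 genes, and mouse 1 had the most positive value at 10 of the 12 ages. Skeletal muscle marker levels summed to 1172 FPKM in Day 0 mouse 1 against 4.08 and 4.37 FPKM in the other Day 0 mice. Pancreatic marker sums ranged from 3.92 to 15178 FPKM between mice. Hepatocyte markers (Alb, Ttr, Apoa1, Hnf4a, Cps1 and Tat) were above 0 in every mouse at GD17.5 and Day 0 and after weaning, as the label liver requires.

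The let-7 seed, bases 2 to 8 of the mature microRNA, is the sequence that links several of these genes, and it is shown first because the genes differ in how often their 3' UTRs match it. Of 11 mature mouse let-7 family sequences in RefSeq, 10 share the same seed, given in capitals in the 3 examples here.
mmu-let-7a-5p: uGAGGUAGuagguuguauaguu
mmu-let-7g-5p: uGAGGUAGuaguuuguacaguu
mmu-miR-98-5p: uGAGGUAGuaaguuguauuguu
The reverse complement, CTACCTC, was searched on the mRNA strand only, in the longest annotated 3' UTR of each gene. It occurred 17 times in 7 of the 10 genes, and 9 of these matches were followed by an A. For each of the 7 genes the match nearest the stop codon is printed from the NCBI37/mm9 genome, 5' to 3' on the strand of the gene, with the match in capitals. All 7 windows lie in the annotated 3' UTR of their gene.
Lin28b: tcccttcacccgggcgggaagtCTACCTCa
Trim71: aaagtacaacattgcctaagtcCTACCTCa
Igf2bp1: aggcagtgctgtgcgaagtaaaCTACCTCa
Igf2bp2: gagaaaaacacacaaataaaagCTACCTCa
Igf2bp3: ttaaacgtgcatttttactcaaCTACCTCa
Hmga1: catcttctcctctgttcacaaaCTACCTCt
Hmga2: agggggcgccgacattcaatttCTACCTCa
The window of Lin28b lies at chr10:45100828-45100857 (minus strand), that of Trim71 at chr9:114421590-114421619 (minus) and that of Igf2bp1 at chr11:95823092-95823121 (minus). Those of Igf2bp2, Igf2bp3 and Hmga2 are at chr16:22059546-22059575, chr6:49036786-49036815 and chr10:119801280-119801309, all on the minus strand, and that of Hmga1 is at chr17:27700215-27700244 on the plus strand.

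Lin28b, Igf2bp1 and Hmga2 each held 4 matches and Trim71 held 2. Igf2bp2, Igf2bp3 and Hmga1 held 1 each. In Gpc3, Zhx2 and Zbtb20 these letters were not found in the annotated 3' UTR. Among 19294 mouse genes with an annotated 3' UTR, 9.09% held at least 1 match and 0.135% held 3 or more. Longer UTRs hold more matches by length alone. Among UTRs within 1.25 times the length of the Lin28b UTR (4445 bases), 25.4% held a match and 0.282% held as many as Lin28b. The corresponding shares holding as many were 0.263% for Igf2bp1 (6337 bases), 0.141% for Hmga2 (3014 bases), 0.830% for Trim71 (1370 bases) and 13.3%, 14.1% and 9.44% for Igf2bp2, Igf2bp3 and Hmga1. A seed match is a match of letters, and let-7 levels were not analysed here.

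**Figure D1:**
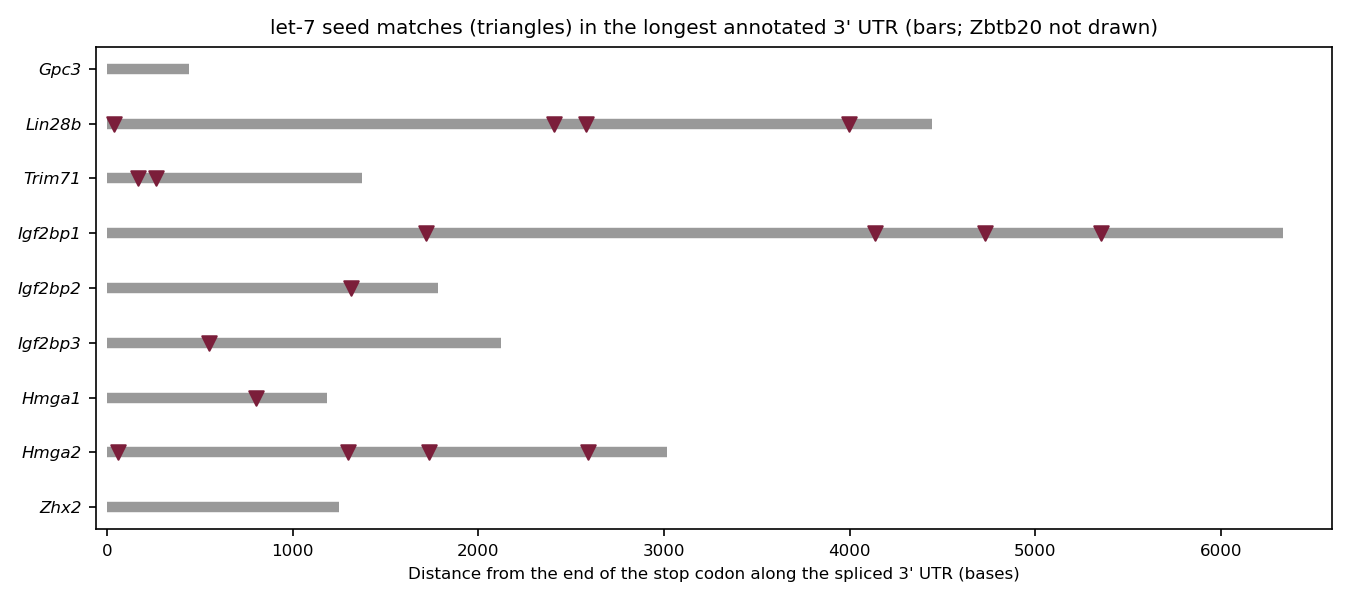
Position of each let-7 seed match (triangles) along the longest annotated 3' UTR of 9 genes (grey bars, in bases from the end of the stop codon). Lin28b, Igf2bp1 and Hmga2 carry 4 matches each, Gpc3 and Zhx2 carry none, and the UTR of Zbtb20 (23858 bases, no match) is not drawn.

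Gpc3 (X:49625603-49967127, minus strand) stood at several FPKM or more in every mouse before weaning and fell at weaning. Its age means from Day 3 to Day 20 were already lower than at Day 1. It measured 11.9, 42.1 and 12.97 FPKM in the 3 mice at GD17.5 and 30.8, 22.8 and 14.2 FPKM at Day 0. Day 1 had the highest mean, with 60.6, 44.3 and 44.3 FPKM. Spread between mice was wide at several early ages, and mouse 1 stood above both others at Days 3, 5 and 10 (47.0 against 11.8 and 12.3 FPKM at Day 3). By Day 20 the mice lay close together, with 8.79, 9.80 and 10.4 FPKM. Just after weaning, at Day 25, they lay at 0.823, 1.03 and 1.57 FPKM, with no overlap. Later values were 0.182, 0.220 and 0.190 FPKM at Day 30 and 0.0830, 0.0846 and 0.0869 FPKM at Day 60.

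Tested with limma on log2(FPKM + 1), Gpc3 fell by 2.33 ± 0.42 (SE) on the log2 scale between Day 20 and Day 25 (adjusted p = 0.000361). No other step after Day 3 passed the test for Gpc3. The rise from Day 0 to Day 1 (log2 difference 1.15, adjusted p = 0.0380) and the fall from Day 1 to Day 3 (log2 difference -1.32, adjusted p = 0.0408) were less secure. Without Day 0 mouse 2 or 3, or any of the Day 1 mice, the rise gave adjusted p from 0.0513 to 0.195. Without any of the Day 1 mice or Day 3 mouse 2 or 3, the fall gave 0.0587 to 0.242. Both also failed at a pseudocount of 0.1 (0.0543 and 0.0671) and with no filter on low values (0.0582 and 0.0630), and the rise at a common upper quartile (0.0799). Against Day 60, Gpc3 was higher at every age from GD17.5 to Day 20 (log2 differences 3.29 to 5.53) and did not pass at Day 25 (adjusted p = 0.194). Every Day 25 mouse nevertheless stood above every Day 60 mouse, and the log2(FPKM + 1) scale understates differences near or below 1 FPKM.

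**Figure D2:**
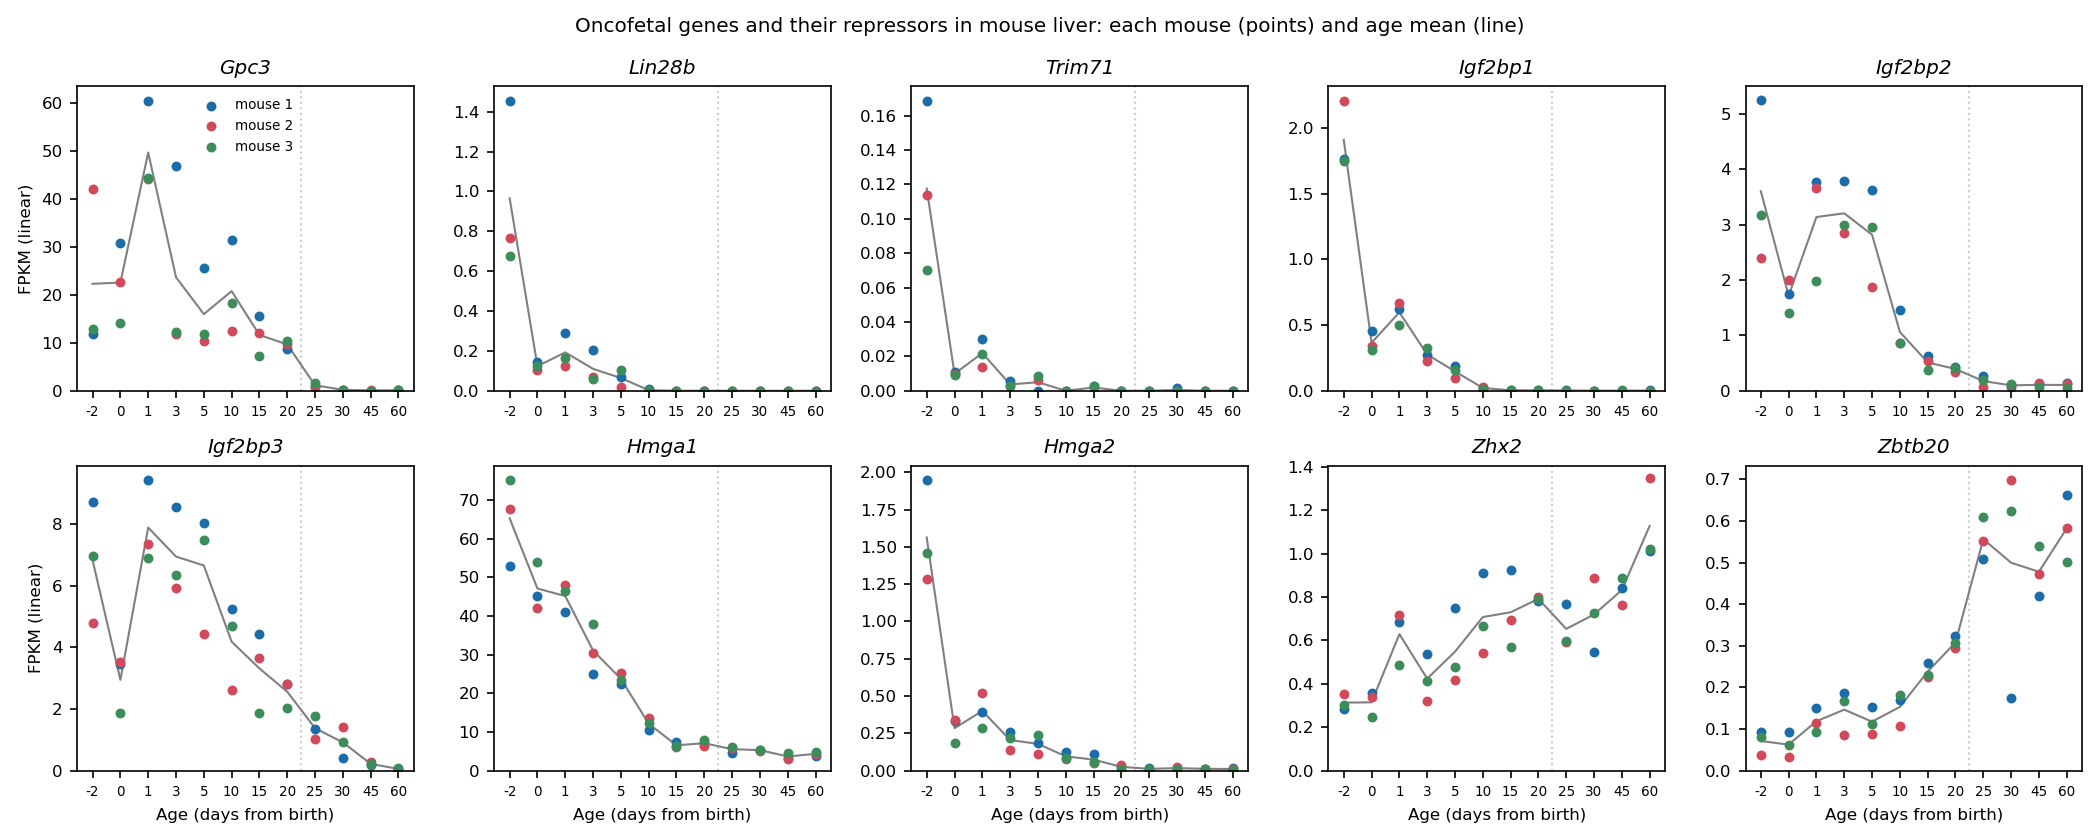
FPKM of the 10 genes (linear axes starting at 0, a separate scale for each gene) against age in days from birth, with 1 point per mouse, 3 mice per age and a line through the age means. The dotted line separates ages before and after weaning; Lin28b, Trim71, Igf2bp1 and Hmga2 are highest at Day -2, Gpc3 drops between Days 20 and 25, and Zhx2 and Zbtb20 are highest at Day 60.

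Other glypicans took a different course. Gpc4, another member of the family, ranged from 2.32 to 2.71 FPKM in the GD17.5 mice and from 9.97 to 10.9 FPKM in the Day 60 mice (log2 difference of the fetal and newborn ages from the ages after weaning -1.21 ± 0.09, adjusted p = 2.56e-13). Summed over the 6 glypican genes, Gpc3 made up 72.6% (range 63.1 to 87.0) of the FPKM at GD17.5, 39.6% (36.2 to 42.2) at Day 20, 8.17% (5.84 to 9.89) at Day 25 and 0.690% (0.642 to 0.759) at Day 60. Over the same ages Gpc4 went from 10.6% (5.19 to 14.4) to 56.0%, 85.9% and 85.8% (84.0 to 87.0).

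**Figure D3:**
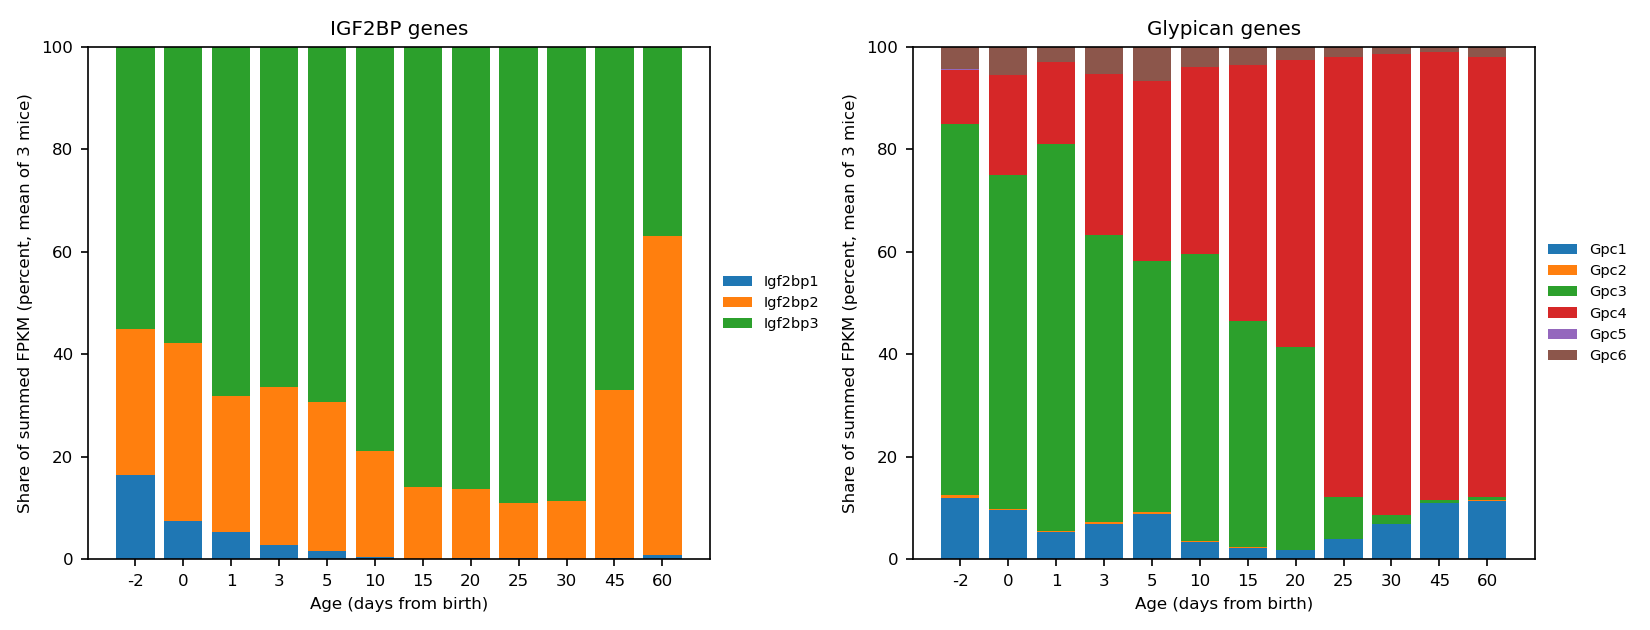
Share of each gene in the summed FPKM of its family (percent, mean of 3 mice) at the 12 ages, for the 3 IGF2BP genes (left) and the 6 glypicans (right). Gpc3 gives way to Gpc4, with shares of 39.6% and 56.0% at Day 20 and 8.17% and 85.9% at Day 25, and Igf2bp1 is largest at Day -2 (16.5%).

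Lin28b and Trim71 showed the earliest loss. Lin28b (chr10:45096426-45206201, minus strand) measured 1.46, 0.768 and 0.675 FPKM at GD17.5 and 0.143, 0.105 and 0.123 FPKM at Day 0, without overlap, so that the Day 0 mean was 12.8% of the GD17.5 mean. It stood at 0.290, 0.125 and 0.163 FPKM at Day 1 and at 0.0699, 0.0173 and 0.104 FPKM at Day 5. At Day 10 the mice were at 0.00701, 0 and 0.00166 FPKM, and Lin28b is listed at 0 in every mouse from Day 15 on. At about 0.00127 FPKM per fragment, the GD17.5 values correspond to about 532 to 1149 fragments, whereas those at Day 10 correspond to at most about 5.53.

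Trim71, which encodes a ubiquitin ligase and RNA-binding protein and is itself a classical let-7 target, was lower still. Trim71 (chr9:114420393-114473487, minus strand) measured 0.169, 0.114 and 0.0702 FPKM at GD17.5 (about 76.2, 51.4 and 31.7 fragments) and 0.0108, 0.00958 and 0.00914 FPKM at Day 0. Its Day 0 mean was thus 8.38% of its fetal mean, with no overlap between the mice. From Day 10 it was above 0 in 3 of 21 mice, at no more than 0.00284 FPKM, which is about 1.28 fragments. Neither gene reached a mean of 1 FPKM at any age, so neither entered the main test.

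Lin28a, the paralog of Lin28b, had a flatter course. It measured 0.403, 0.574 and 0.488 FPKM in the GD17.5 mice, 0.270, 0.336 and 0.225 FPKM at Day 0 and 0.194, 0.102 and 0.214 FPKM at Day 5, and is listed at 0 in every mouse from Day 20. Of the summed FPKM of both genes, Lin28b made up 64.5% (57.2 to 78.3) at GD17.5 and 31.2% (23.8 to 35.2) at Day 0, without overlap of the mice.

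The 3 IGF2BP genes reached low levels at different ages. Igf2bp1 (chr11:95818477-95867254, minus strand) was the first, with 1.77, 2.21 and 1.75 FPKM at GD17.5 and 0.453, 0.337 and 0.307 FPKM at Day 0. It measured 0.187, 0.0981 and 0.156 FPKM at Day 5, then 0.0243, 0.0296 and 0.0113 FPKM at Day 10, and after weaning no mouse exceeded 0.00439 FPKM and 4 of 12 were listed at 0. The fall across birth was -1.09 ± 0.06 (adjusted p = 3.44e-14). Igf2bp1 entered the test only through its GD17.5 mean, so this fall starts from the age that admitted it. Small steps followed, a rise from Day 0 to Day 1 (log2 difference 0.23) and falls from Day 1 to Day 3 (-0.32) and from Day 5 to Day 10 (-0.17, adjusted p = 0.0374). These 3 steps, and the difference of Day 5 from Day 60 (0.20, adjusted p = 0.00732), no longer passed when the length trend of each library was removed (adjusted p 0.0690 to 0.580). The last step also failed without Day 5 mouse 1 or 3 or any Day 10 mouse (adjusted p 0.0649 to 0.124), at a common upper quartile (0.140) and without the variance trend (0.0781).

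Igf2bp2 (chr16:22059082-22163372, minus strand) was low at birth and stood higher again until Day 5. It measured 5.24, 2.40 and 3.16 FPKM in the GD17.5 mice, 1.74, 2.00 and 1.41 FPKM at Day 0 and 3.63, 1.87 and 2.95 FPKM at Day 5. At Day 10 it was 1.45, 0.871 and 0.861 FPKM, below every Day 5 mouse, and at Day 60 it was 0.134, 0.127 and 0.0495 FPKM. Igf2bp2 fell from GD17.5 to Day 0 (log2 difference -0.72, adjusted p = 0.00152) and from Day 5 to Day 10 (-0.87, adjusted p = 0.000389). Its rise from Day 0 to Day 1 (0.58, adjusted p = 0.0157) failed at a pseudocount of 0.1 (0.0521), at a common upper quartile (0.0531), and without Day 0 mouse 3 or Day 1 mouse 1 or 2 (0.0773 to 0.101).

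Igf2bp3 (chr6:49035220-49164953, minus strand) lasted longest of the 3. It was 8.72, 4.78 and 6.98 FPKM at GD17.5, dipped to 3.45, 3.53 and 1.85 FPKM at Day 0 and stood at 9.42, 7.35 and 6.89 FPKM at Day 1. The dip at birth passed the test on both sides (log2 differences -0.99 and 1.19, adjusted p = 0.00155 and 0.000637), and no mouse at Day 0 overlapped those at GD17.5 or Day 1. The decline after Day 1 was spread over many steps, none of which passed by itself. Igf2bp3 was 2.81, 2.81 and 2.05 FPKM at Day 20, 1.34, 1.03 and 1.76 FPKM at Day 25, 0.411, 1.42 and 0.917 FPKM at Day 30 and 0.0460, 0.0482 and 0.0686 FPKM at Day 60. It was the only tested member whose higher level than at Day 60 still passed the test at Day 25 (log2 difference 1.16 ± 0.25, adjusted p = 0.00237).

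The makeup of the family differed accordingly between ages. Igf2bp1 made up 16.5% (11.2 to 23.5) of the summed IGF2BP FPKM at GD17.5 and 1.53% (1.48 to 1.58) at Day 5. Igf2bp3 went from 55.0% (50.9 to 58.7) at GD17.5 to 89.0% (83.7 to 93.5) at Day 25, while the sum went from 12.3 to 1.55 FPKM. At Day 60, when the sum was 0.159 FPKM, Igf2bp2 held 62.3% (41.9 to 73.2).

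Hmga1 (chr17:27693565-27700619, plus strand) had the highest level of the 10 genes at GD17.5, with 53.0, 67.6 and 75.2 FPKM, followed by 45.2, 42.2 and 53.9 FPKM at Day 0. The mice were at 22.5, 25.4 and 23.4 FPKM at Day 5, 10.5, 13.7 and 12.2 FPKM at Day 10, 7.37, 5.99 and 6.29 FPKM at Day 15 and 3.85, 4.32 and 4.80 FPKM at Day 60. Hmga1 was therefore the only member of the falling genes that kept a level of several FPKM in the adult. It fell between Days 5 and 10 (log2 difference -0.92, adjusted p = 2.33e-05) and between Days 10 and 15 (-0.79, adjusted p = 0.000456).

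Some other calls for Hmga1 were lost when single mice were left out, and that of the fall at birth also by scaling. The fall at birth (log2 difference -0.46, adjusted p = 0.0124) gave 0.359 at a common upper quartile and 0.0805 or 0.0603 without GD17.5 mouse 3 or Day 0 mouse 2. That from Day 1 to Day 3 (-0.54, adjusted p = 0.0169) gave 0.0554 to 0.114 without Day 1 mouse 2 or 3 or Day 3 mouse 1 or 2. The difference of Day 15 from Day 60 (0.50, adjusted p = 0.0122) gave 0.0759 or 0.0644 without mouse 1 of either age.

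Hmga2 (chr10:119798331-119913525, minus strand) measured 1.95, 1.28 and 1.46 FPKM at GD17.5 and 0.331, 0.336 and 0.186 FPKM at Day 0, which was 18.2% of the fetal mean. It reached 0.126, 0.0761 and 0.0844 FPKM at Day 10 and 0.0157, 0.00932 and 0.00657 FPKM at Day 60. The fall at birth (log2 difference -0.99 ± 0.08, adjusted p = 2.05e-11) was its only step to pass. Hmga2 entered the test only through its GD17.5 mean, so this step starts from the age that admitted it. Its difference from Day 60 at Day 5 (0.22, adjusted p = 0.0120) gave 0.0598 without Day 5 mouse 3 and 0.0661 when the length trend was removed. Hmga2 made up 2.44% (1.86 to 3.54) of the summed HMGA FPKM at GD17.5 and 0.252% (0.137 to 0.405) at Day 60.

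The courses of the 8 falling genes thus separated by age. Lin28b, Trim71, Igf2bp1 and Hmga2 were last at or above 50% of their peak mean at GD17.5, Gpc3 and Hmga1 at Day 1, Igf2bp2 at Day 5 and Igf2bp3 at Day 10. At Day 10 their means were 0.299%, 0%, 1.14% and 6.12% of the peak for Lin28b, Trim71, Igf2bp1 and Hmga2, against 41.8% for Gpc3, 29.5% for Igf2bp2, 53.0% for Igf2bp3 and 18.6% for Hmga1. The 4 genes with the lowest Day 0 level relative to GD17.5 are those with 2 or 4 let-7 seed matches, and the 3 with 1 match and Gpc3 with none were retained longer. With 8 genes, and no measure of let-7, this is a description. Across the 12 age means of log2(FPKM + 1), the pairs among Lin28b, Trim71, Igf2bp1 and Hmga2 had Pearson's r from 0.946 to 0.991. These 4 had r from 0.348 to 0.536 with Gpc3 and from 0.416 to 0.581 with Igf2bp3. With Igf2bp2 they had r from 0.547 to 0.742 and with Hmga1 from 0.616 to 0.817. The 4 genes were grouped by the same age means, so the high r among them is no separate evidence.

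**Figure D4:**
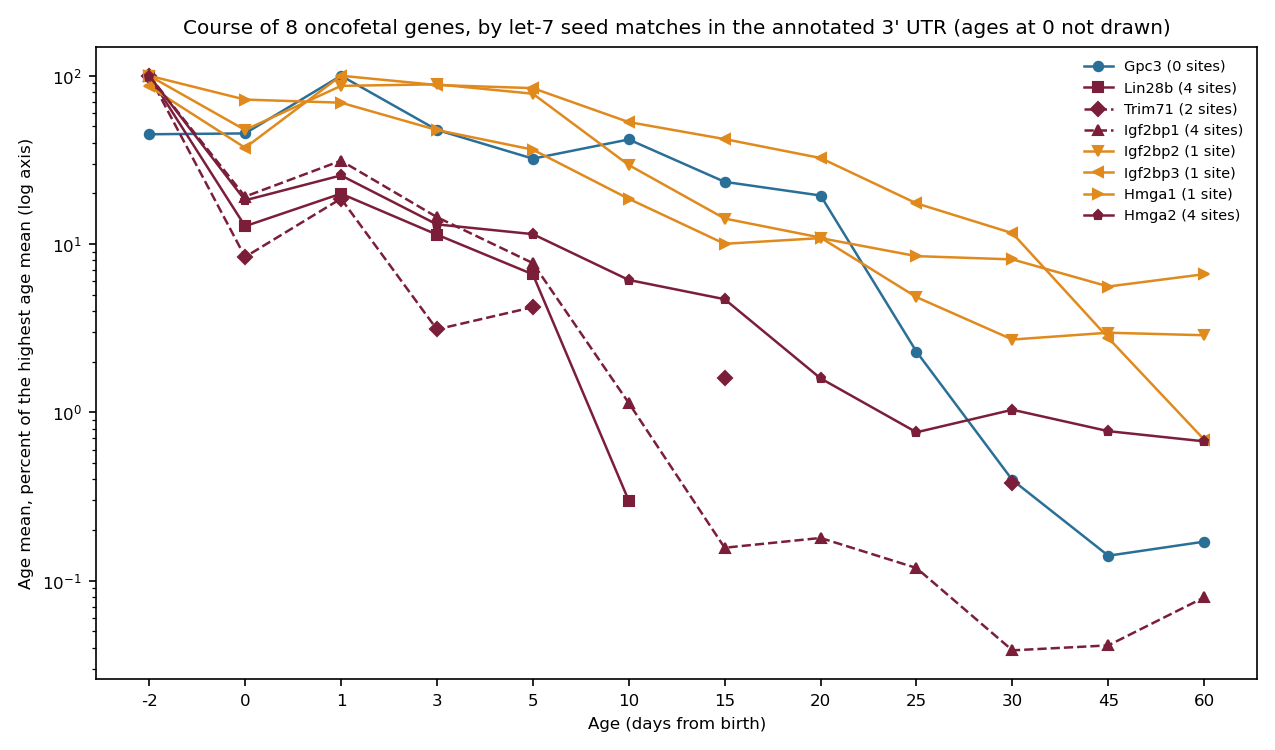
Age mean of 8 falling genes as a percentage of the highest age mean of the same gene (log axis) against age in days from birth; age means of 0 are not drawn. Dark red marks genes with 2 or 4 let-7 seed matches, which lie between 8.38% and 19.1% at Day 0, orange those with 1 match and blue Gpc3 with none.

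The repressors moved the other way. Zhx2 (chr15:57526220-57671388, plus strand) measured 0.286, 0.353 and 0.301 FPKM in the GD17.5 mice, 0.356, 0.340 and 0.248 FPKM at Day 0 and 0.683, 0.716 and 0.488 FPKM at Day 1. It was 0.783, 0.801 and 0.792 FPKM at Day 20 and 1.01, 1.35 and 1.02 FPKM at Day 60. No fetal or newborn mouse overlapped any mouse at Day 1 or after weaning. At Day 3, however, Zhx2 measured 0.539, 0.321 and 0.413 FPKM, and mouse 2 lay within the range of the fetal and newborn mice. At Day 5 it measured 0.749, 0.419 and 0.477 FPKM. Zhx2 rose from Day 0 to Day 1 (log2 difference 0.31, adjusted p = 0.0200), a call lost at a common upper quartile (0.0554) and without Day 0 mouse 3 or Day 1 mouse 1 or 2 (0.0736 to 0.0909). It was lower than at Day 60 at GD17.5 to Day 15 and at Day 25.

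Among these differences from Day 60, that of Day 10 (log2 difference -0.32) lost its call without Day 10 mouse 2 or Day 60 mouse 2 (adjusted p = 0.0693 and 0.0742). Those of Days 15 and 25 lost it on the TPM scale (0.0626 and 0.0828). They also lost it without mouse 2 or 3 of the same age or Day 60 mouse 2 (0.0653 to 0.149 for Day 15, 0.0855 to 0.169 for Day 25). The high Day 60 value of 1.35 FPKM in mouse 2 enters all of the Zhx2 comparisons with that age. Zhx2 also entered the test only through its Day 60 mean, so these comparisons use the age that admitted it.

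Zbtb20 (chr16:42875994-43642715, plus strand) had the lowest mean FPKM of the 10 genes at GD17.5, with 0.0935, 0.0381 and 0.0815 FPKM. It measured 0.169, 0.107 and 0.183 FPKM at Day 10, 0.323, 0.295 and 0.306 FPKM at Day 20 and 0.508, 0.552 and 0.609 FPKM at Day 25. The mice of these 3 ages did not overlap, and the last interval is the one in which Gpc3 fell, but for Zbtb20 that step did not pass in either fit without a filter. The log2 difference was 0.25 (adjusted p = 0.0634) with a pseudocount of 1 and 0.68 ± 0.26 (adjusted p = 0.140) with a pseudocount of 0.1. At Day 60 Zbtb20 was 0.661, 0.582 and 0.502 FPKM. At Day 30 it was 0.699 and 0.624 FPKM in mice 2 and 3 but 0.175 FPKM in mouse 1, the library with the most negative length trend (rho -0.545). The annotated exons of Zbtb20 cover 30730 bases, the most of the 10 genes, and the part of the length trend in that value was not tested.

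Low levels kept Zbtb20, Lin28b and Trim71 under the filter of a mean of 1 FPKM in at least 1 age. With no filter and a pseudocount of 0.1, settings chosen after seeing the data, all 3 differed between the fetal and newborn ages and the ages after weaning. The adjusted p was 1.25e-14 for Lin28b, 9.87e-12 for Trim71 and 1.97e-11 for Zbtb20, in a fit that called 69% of 18601 genes. The log2 difference of Zbtb20 was -1.89 ± 0.16. No fold is given for Lin28b or Trim71, since they are listed at 0 in 12 and 11 of the 12 mice after weaning.

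The 6 mice of GD17.5 and Day 0 were next compared with the 12 mice of Days 25, 30, 45 and 60, before the first milk feed against after weaning. Gpc3 ranged from 11.9 to 42.1 FPKM (median 18.5) early and from 0.0196 to 1.57 FPKM (median 0.161) late, a 60.2-fold difference of the means. Hmga1 ranged from 42.2 to 75.2 FPKM early and from 3.03 to 5.99 FPKM late, and its means differed 12.0-fold. The early means of Igf2bp2, Igf2bp3 and Hmga2 were 22.05, 7.62 and 72.9 times the late ones. Zhx2 ranged from 0.248 to 0.356 FPKM early and from 0.546 to 1.35 FPKM late, and Zbtb20 from 0.0322 to 0.0937 FPKM and from 0.175 to 0.699 FPKM. None of the 10 genes overlapped between these groups, with the 8 oncofetal genes higher early and the 2 repressors higher late. Of all tested genes, 36.6% were higher early without overlap and 9.02% higher late. Lin28b, Trim71 and Zbtb20 lay under the filter and so outside these shares. Igf2bp1, Hmga2 and Zhx2 passed the filter only through an age of the group where they were higher.

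On the log2(FPKM + 1) scale, the differences were 4.01 ± 0.26 (SE) for Gpc3, 3.32 ± 0.09 for Hmga1, 1.82 ± 0.15 for Igf2bp3, 1.63 ± 0.11 for Igf2bp2, 0.99 ± 0.04 for Igf2bp1 and 0.84 ± 0.05 for Hmga2. Zhx2 differed by -0.47 ± 0.06. All 7 passed (largest adjusted p = 4.40e-08, for Zhx2), in a comparison that called 81.9% of the 11149 genes tested, 61.9% higher and 20.1% lower at the early ages. Passing is therefore common, and Igf2bp1 and Hmga2 entered the test only through GD17.5 and Zhx2 only through Day 60, the ages where they are high. The median of all genes was 0.49. This scale understates the change of genes near or below 1 FPKM, as Igf2bp1, Hmga2 and Zhx2 are, so the order of the members by size depends on the pseudocount. At a pseudocount of 0.1 the difference was 3.55 for both Igf2bp2 and Hmga1 and 3.25 for Igf2bp1. Scaled to a common upper quartile, the median of all genes was 0.13, with 44.5% higher and 33.3% lower, and the 7 members kept their direction and their call.

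**Figure D5:**
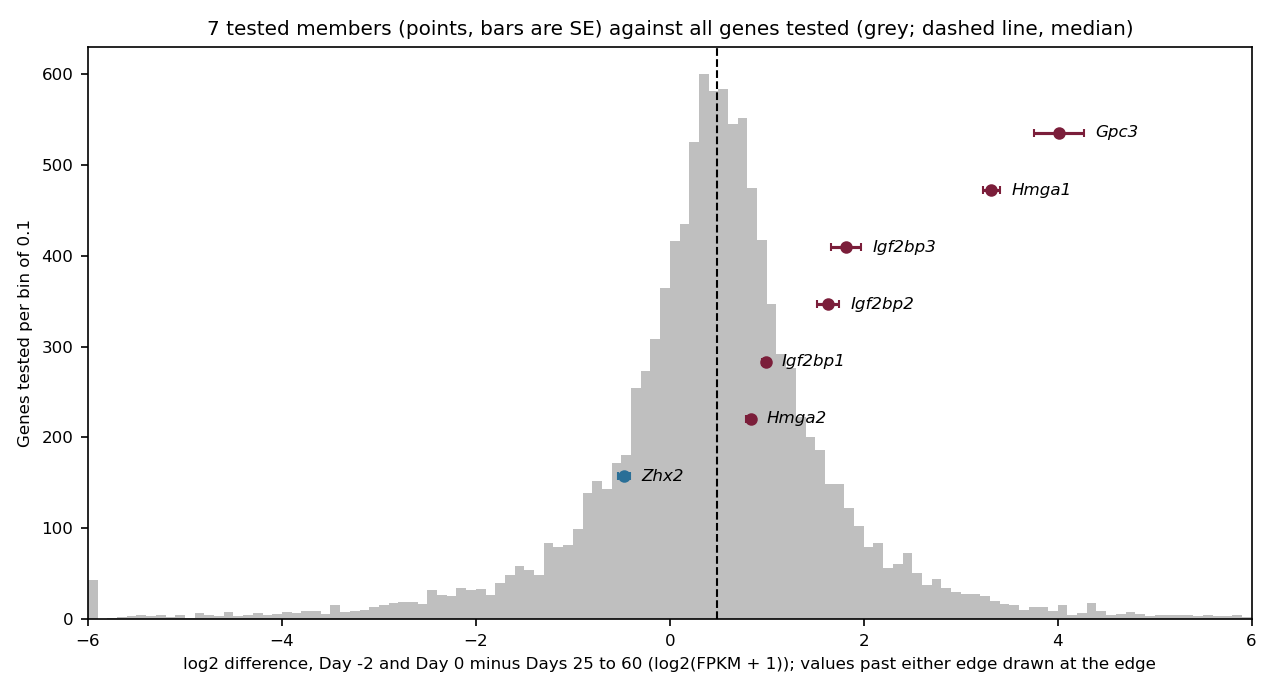
Log2 difference of Day -2 and Day 0 minus Days 25 to 60 for 11149 tested genes (grey, genes per bin of 0.1) and for 7 tested members (points, bars are the SE, vertical position arbitrary). The dashed line is the median of all genes, 0.49; Gpc3 (4.01) and Hmga1 (3.32) lie far to its right and Zhx2 (-0.47) to its left.

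Set against Day 60, each of the 7 tested members differed at 1 or more of the 11 other ages, as did 91.9% of all tested genes. At GD17.5, Days 0, 1, 3 and 5 the 6 tested oncofetal genes were higher and Zhx2 was lower, while 75.1%, 63.9%, 65%, 66% and 65.4% of all genes differed. At Day 10 Gpc3, Igf2bp2, Igf2bp3 and Hmga1 were still higher and Zhx2 lower (46% of all genes differed, in either direction). At Day 15 Gpc3, Igf2bp3 and Hmga1 were higher and Zhx2 lower (27.4% differed). At Day 20 the same 3 were higher, as were 8.93% of all genes (15.9% differed). At Day 25 Igf2bp3 was higher and Zhx2 lower (7.42% differed). No member passed at Day 30 or Day 45, when 3.56% and 0.233% of all genes did. Not passing there does not mean equal levels, since the log2(FPKM + 1) scale understates differences below 1 FPKM. Igf2bp3 was 0.165, 0.273 and 0.217 FPKM at Day 45, above every Day 60 mouse, whereas the Gpc3 mice of those ages overlapped.

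Adjacent ages showed where the members moved. Across birth Igf2bp1, Igf2bp2, Igf2bp3, Hmga1 and Hmga2 fell, among 54.6% of all genes that differed between GD17.5 and Day 0. From Day 0 to Day 1 Gpc3, the 3 IGF2BP genes and Zhx2 rose (31.6% of all genes), and from Day 1 to Day 3 Gpc3, Igf2bp1 and Hmga1 fell (11.3%). No member passed from Day 3 to Day 5 (3.2%). From Day 5 to Day 10 Igf2bp1, Igf2bp2 and Hmga1 fell (36.3%), and from Day 10 to Day 15 Hmga1 fell (12%). None passed from Day 15 to Day 20 (1.99%), and Gpc3 alone did from Day 20 to Day 25 (7.19%). No later step passed for any member, where 1.64%, 1.03% and 0.233% of all genes did. The Gpc3 mice of Days 25 and 30 nevertheless did not overlap (0.823 to 1.57 against 0.182 to 0.220 FPKM).

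The order of levels in FPKM, which depends on the transcript length used, differed between the ends of the series. Zbtb20 has the longest annotated exons of the set (30730 bases), and the part of this length in its place was not tested. At GD17.5 it was Hmga1, Gpc3, Igf2bp3, Igf2bp2, Igf2bp1, Hmga2, Lin28b, Zhx2, Trim71 and Zbtb20, where the mice of Igf2bp3 and Igf2bp2, of Igf2bp1 and Hmga2, of Hmga2 and Lin28b and of Trim71 and Zbtb20 overlapped. At Day 60 it was Hmga1, Zhx2, Zbtb20, Igf2bp2, Gpc3, Igf2bp3, Hmga2 and Igf2bp1, with Lin28b and Trim71 at 0. Among these, the mice of Igf2bp2 overlapped those of Gpc3 and of Igf2bp3, and 1 of the Igf2bp1 mice was also at 0.

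Known targets of the repressors were low after weaning. Afp measured 3531, 3467 and 3806 FPKM at GD17.5 and 11337, 14504 and 8650 FPKM at Day 0, then 563, 143 and 132 FPKM at Day 15 and 20.7, 1.19 and 1.69 FPKM at Day 25. H19, a long non-coding RNA, was 2401, 1588 and 1186 FPKM at Day 15, 344, 200 and 252 FPKM at Day 20 and 16.9, 5.89 and 10.6 FPKM at Day 25. Both fell between the early and the late ages (log2 differences 10.97 and 9.82), as did Lpl, the gene of lipoprotein lipase (2.01 ± 0.21). Lpl had its highest mean at Day 15 (37.4 FPKM), when the H19 mean was 1725 FPKM. All 3 genes thus stood higher early, and these targets were listed because they are known to respond to the repressors.

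Igf2, the mRNA after which the IGF2BP proteins are named, measured 248, 231 and 147 FPKM in the GD17.5 mice, 568, 270 and 350 FPKM at Day 10, 301, 103 and 48.2 FPKM at Day 15 and 7.23, 5.62 and 6.36 FPKM at Day 20. Its lowest value before Day 20 was thus above its highest value at Day 20, while Gpc3 was still at 8.79 to 10.4 FPKM. All 11 tested IGF2BP partners and clients were higher at the fetal and newborn ages (10 at a common upper quartile), H19, Igf2 (7.40) and Pabpc1 (2.80), a poly(A)-binding protein, by most.

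Other genes of these pathways were counted from lists that share some genes (H19 stands in 3 of them). Over 9 such lists, 84 genes besides the members were tested, of which 60 (71.4%) were higher early and 12 (14.3%) lower, against 61.9% and 20.1% of all tested genes. At a common upper quartile the counts were 50 (59.5%) and 20 (23.8%), against 44.5% and 33.3%. The shares lie near those of all genes and are no result about these pathways. The counts of the single lists are read against the same shares. Among 16 tested let-7 targets, 15 were higher early and none lower (12 and none at a common upper quartile), with a median log2 difference of 1.21 against 0.49 for all genes. Fignl1 (2.99), Plagl2 (2.73) and Cdc25a (2.43), a cell cycle phosphatase, differed most. Of 13 tested genes for the processing of let-7 and other microRNAs, 10 (76.9%) were higher early and none lower, and at a common upper quartile 8 (61.5%) and 2 were, which is not far from the 61.9% and 44.5% of all genes that were higher. They were led by Eif2c2 (2.05), which encodes the Argonaute protein AGO2, Drosha (1.95), the nuclear processing enzyme, and Hnrnpa1 (1.68). Of 7 tested HMG genes 6 were higher early and none lower (5 and none), Hmgn2 (3.41), Hmgb3 (2.92) and Hmgb2 (2.85) by most.

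Glypican and heparan sulphate genes went both ways. Of 12 tested, 5 were higher early and 4 lower (4 and 7 at a common upper quartile), with a median of -0.04. Gpc1 (1.00), Gpc6 (0.96) and Extl3 (0.70) were higher early, and Notum (-2.59), a lipase that releases glypicans and inactivates Wnt proteins, Gpc4 (-1.21) and the sulphatase Sulf2 (-0.96) were lower. Of 5 tested relatives of the repressors, Zbtb45 (2.14) and Zbtb7a (0.91) were higher early and Bcl6 (-0.91) and Zhx3 (-0.65) lower (the same 2 and 2 counts at a common upper quartile). Of 10 tested control factors of Afp, Trp53 (2.18) was higher early and 6 were lower, among them Cebpa (-0.93), Nr5a2 (-0.82) and Foxa2 (-0.79), and at a common upper quartile the counts were 1 and 9. All 12 tested genes of the list of other oncofetal markers were higher early (10 at a common upper quartile), Afp, H19 and Cd24a (7.47) most, with a median of 2.95.

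Genes with the most similar course were found by Pearson's r of the 12 age means of log2(FPKM + 1), outside the members. They were H19 (r = 0.980), Col5a1 (0.980) and Med16 (0.976) for Gpc3. For Igf2bp1 they were Chd7 (0.987), Guca2b (0.985) and 6030405A18Rik (0.982), and for Hmga2 Kcnip2 (0.994), Alkbh8 (0.987) and Kif12 (0.986), all of which had their highest mean at GD17.5. Bex2 (0.996), Nap1l4 (0.994) and Batf (0.994) lay nearest to Igf2bp2, Tmed1 (0.981), Atp6v1e1 (0.981) and Loxl2 (0.977) to Igf2bp3, and Gna15 (0.994), Dtx3 (0.994) and 2010002N04Rik (0.993) to Hmga1.

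For Zhx2 the nearest were Nudt12 (0.964) and Dpyd (0.962), the first enzyme of pyrimidine breakdown, and the most opposed were Tuba1c (-0.948), Uba7 (-0.943) and Bak1 (-0.942). For Zbtb20 they were Aldh1a1 (0.986), Mug2 (0.983) and Aldh1a7 (0.982), and the most opposed were Slc41a3 (-0.981), Limd2 (-0.974) and Gpsm1 (-0.973). Aldh1a1, a retinaldehyde dehydrogenase, went from a mean of 30.7 FPKM at Day 20 to 215 FPKM at Day 25. These values rest on 12 age means that share the same mice.

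Markers of other cells changed over the same ages. Erythroid marker levels (9 genes, all higher early) summed to 1285 to 4042 FPKM in the fetal and newborn mice and 32.5 to 87.6 FPKM after weaning, when Gata1, Epb4.2, Rhag and Hemgn were at 0 in some mice. Markers of other blood cells (10 of 10 higher early) summed to 430 to 702 FPKM early and 22.4 to 47.8 FPKM late, and markers of dividing cells (8 of 8 higher early) to 105 to 368 FPKM and 0.791 to 18.2 FPKM. Endothelial (3 of 4 higher), stellate (3 of 4 higher, 1 lower) and biliary markers (3 of 3 tested higher) summed to 21.7 to 36.7, 35.8 to 133 and 4.11 to 17.2 FPKM early and to 6.69 to 18.7, 6.33 to 17.5 and 2.10 to 5.44 FPKM late. All 6 hepatocyte markers were lower early, with sums of 7414 to 45644 FPKM against 38978 to 57887 FPKM.

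Several members followed these sums closely. Across the 12 ages Hmga1 had r = 0.98 with the other blood markers, 0.96 with erythroid, 0.94 with dividing and 0.90 with biliary ones. Gpc3 had r = 0.95 with the stellate markers, 0.93 with endothelial and 0.92 with biliary ones. Its r was 0.85 with other blood, 0.84 with dividing and 0.73 with erythroid markers. Lin28b, Trim71, Igf2bp1 and Hmga2 had r from -0.92 to -0.96 with the hepatocyte markers, whose sum was 7414 to 8907 FPKM at GD17.5 and 36482 to 45644 FPKM at Day 0. Their r with the erythroid markers was 0.64 to 0.82, and the erythroid sum was 1285 to 1805 FPKM in the mice of Day 0, 614 to 743 FPKM in those of Day 1 and 1068 to 1352 FPKM in those of Day 3. In whole liver, fewer cells of a type and less RNA per cell cannot be told apart, and the part of these cells in the members' courses was not tested. Skeletal muscle markers (5 of 6 higher early) summed to 6.31 to 8.85 FPKM at GD17.5 and 0.275 to 0.687 FPKM after weaning. At Day 0 the sum was 1172 FPKM in mouse 1 and 4.08 and 4.37 FPKM in the others. The early mean of 201 FPKM thus rested on that mouse, but the higher early level did not. None of the 6 pancreatic markers passed.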

How the data were processed

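Total RNA of 36 livers, 3 per age, was made into libraries from polyadenylated RNA. Per the labels and the methods of the study, the authors aligned paired reads to NCBI37/mm9 with TopHat 1.2.0 and estimated FPKM with Cufflinks 1.0.3 (versions from the submitters' processing notes). They deposited 1 FPKM value per gene symbol and mouse, without counts. The 11149 genes whose age mean reached 1 FPKM at some age were fitted as log2(FPKM + 1) values with limma 3.58.1 in R 4.3.3, with 1 mean per age, no covariates and a variance trend. Tests were two-sided, with Benjamini-Hochberg adjustment over all genes within each comparison and a threshold of 0.05. The share of false calls among the genes called in these libraries was not tested. Per the methods of the study, the 3 mice of an age were picked at random from several litters, and the labels do not say which mice shared a litter.

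The members and gene lists were chosen with earlier results of these data known. The genes named are all members, up to 3 risen and 3 fallen genes per list by size among those that passed, Afp, H19, Igf2 and Lin28a, the 3 nearest genes by course and, for the repressors, the 3 most opposed. Some items that this rule names are not reported here. Of 163 listed symbols, 155 were present. Marker lists were for hepatocytes, erythroid, other blood, dividing, endothelial, stellate, biliary, skeletal muscle and pancreatic cells. Fragments per library were estimated here from the smallest values above 0 and GENCODE M1 exon lengths, and intervals from such estimates would cover counting error only. Gene positions and 3' UTRs are from GENCODE M1 (NCBI37/mm9), and mature let-7 sequences from RefSeq (table of build GRCm38.p6). Python 3.11.15 with pandas 2.3.3, numpy 2.4.6 and matplotlib 3.10.9 was used for summaries and figures.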

Additional observations from a re-analysis of the deposited data

How the results depend on the processing

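The comparison of the fetal and newborn ages with the ages after weaning kept its direction and its call for each of the 7 tested members under every alternative that left the member in the test. Tried in turn were no filter, a filter at 5 FPKM, a pseudocount of 0.1, a common upper quartile, TPM, the replicate block, no variance trend, each of the 36 mice left out and, chosen after seeing the data, no filter with a pseudocount of 0.1 and removal of the length trend of each library. The log2 difference of Gpc3 ranged from 3.72 (common upper quartile) to 5.97 (pseudocount of 0.1), that of Igf2bp1 from 0.86 to 3.25, of Igf2bp2 from 1.43 to 3.55, of Igf2bp3 from 1.51 to 3.14, of Hmga1 from 2.80 to 3.55 and of Hmga2 from 0.72 to 2.81, each between the same settings. That of Zhx2 ranged from -1.14 to -0.45. A filter at 5 FPKM left Gpc3, Igf2bp3 and Hmga1 in the test, so that 3 members differed from Day 60 and 3 between the early and late ages, and 9 pairs of member and adjacent step passed, against 7, 7 and 18 in the main analysis. Without a filter 10, 10 and 19 passed, and at a common upper quartile 14 steps did. With 1 mouse left out, 13 (without Day 1 mouse 2) to 20 (without GD17.5 mouse 2) steps passed, and 7 or 8 members differed. The added one was Lin28b, which enters the test without GD17.5 mouse 2 or 3. Of 74 calls for single members, 59 were kept in all settings in which the calls were checked, and the other 15 are named beside their values. These settings were each mouse left out, no filter, a pseudocount of 0.1, a common upper quartile, TPM, the replicate block, no variance trend and removal of the length trend. Single calls were not checked with the filter at 5 FPKM, with no filter and a pseudocount of 0.1 together, or under the other adjustments. The listed genes that passed were 72, and 49 to 82 under the alternatives. Dunnett's comparison and adjustment over all comparisons together each gave 7 members against Day 60.

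With the replicate number as a block (replicate block), 7 members differed from Day 60, 7 between early and late ages and 18 steps passed, and all 74 calls were kept. Of 198 pairs of same-numbered mice of different ages, 104 (52.5%) had deviations with r above 0.1 (median r 0.126, range -0.680 to 0.829), against 147 (37.1%) of 396 pairs with different numbers (median r -0.0476). Same-numbered mice were thus somewhat more alike, but not in every pair, and the labels give the numbers no meaning, so they were not used as pairs. Depth limits what can be said of Trim71 and Lin28b after Day 10, where a value of 0 covers anything below about 1 fragment.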
